A study of Mus musculus with 20 samples.

Results

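The 8 genes described here are Zscan4c, Zscan4d, Zscan4f, Tcstv1, Tdpoz1, Tdpoz2, Usp17ld and Sp110, genes of the two-cell-like programme that were picked by name from the 21361 rows of a table of read counts from mouse cell lines. All 8 were followed in all 20 libraries as CPM, a gene's count as a share of its library's total on the usual scale, and all 8 passed the filter on low counts that left 16363 genes to be tested. The rule that chose them used no measured value of this table, but they were proposed with earlier results of these data in view.

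Poly(A) RNA was sequenced from embryonic stem cells (ESCs), from lines called PGC-ESCs after primordial germ cells (PGCs), and from epiblast-like cells (EpiLCs), in a series that tested what PGCs can become after injection into early embryos. The lines labelled C57Bl6J were 4 wildtype ESC lines from host embryos (ESC Host), 3 PGC-ESC lines without Puma and Noxa, a double knockout (PGC-ESC DKO), 2 EpiLC libraries made from Host lines 3 and 4 (EpiLC Host) and 3 made from the DKO lines (EpiLC DKO). The lines labelled C57Bl6J/129SvEvRoEp were 5 PGC-ESC lines without Bax (PGC-ESC BaxKO), 2 earlier-derived ESC lines without Bax (ESC BaxKO) and 1 Bax heterozygous ESC line (ESC BaxHet). Puma, Noxa and Bax are genes of the apoptosis pathway, so each knockout removes a step of cell death. ESCs were kept with LIF and inhibitors of GSK3 and MEK on gelatin, without a feeder layer named in the protocol; the sources used here do not give the ages of embryos and germ cells. Strain label, Bax genotype and time of derivation differ together between the Bax lines and the C57Bl6J lines and cannot be told apart, and within C57Bl6J the germ cell origin and the DKO genotype cannot be told apart either. Y-linked genes differed between lines as well. Their mean CPM over 4 genes was 61.1 and 47.0 in ESC BaxKO 1 and 2. It was 0 in ESC Host 1 to 3 and 3.84 in ESC Host 4. PGC-ESC BaxKO 2 and 5 were at 53.5 and 53.0, PGC-ESC DKO 3 at 42.8 and EpiLC DKO 3 at 44.0 CPM. EpiLC Host 4 was at 4.93 CPM and the other libraries at 0. The part of this difference in the results was not tested.

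The two-cell-like state is a rare, passing state of cultured mouse ESCs in which a few cells switch on genes that the embryo uses when its own genome is first transcribed. The homeobox factor DUX, itself induced with the help of the DNA-binding partners DPPA2 and DPPA4, activates many of these genes. ZSCAN4 proteins bind DNA through zinc fingers, carry a SCAN domain and are known for helping ESCs to lengthen telomeres and keep a stable karyotype. TCSTV1 belongs to a family named after the cleavage-stage embryo, TDPOZ proteins join a TRAF-like (MATH) domain to a POZ domain, USP17-like proteins are deubiquitinating enzymes, and SP110 is a nuclear body protein of the interferon-inducible SP100 family. In bulk RNA a lower level can mean fewer cells in the state or less RNA per such cell, and these cannot be told apart here.

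The GENCODE gene models on mouse build mm10 place the Zscan4 genes in 1 cluster on chromosome 7. Zscan4c spans chr7:11005745-11010547 on the plus strand in 4 exonic blocks, Zscan4d spans chr7:11161374-11166159 on the minus strand in 4, and Zscan4f spans chr7:11397915-11402318 on the plus strand in 5. Usp17ld lies elsewhere on that chromosome, at chr7:103249737-103252505 on the minus strand. Tdpoz1 (chr3:93669333-93676310) and Tdpoz2 (chr3:93651542-93652686) are neighbours on the minus strand of chromosome 3. Tcstv1 is a single-exon gene at chr13:119893388-119894785 on the minus strand, and Sp110 has 13 exonic blocks at chr1:85576899-85598817 on the minus strand. All 8 are annotated as protein-coding.

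Start-site windows from RefSeq (GRCm38.p6) show how alike the copies are, and were found for 6 of the 8 genes. The windows of the 3 Zscan4 genes are shown because their counts moved together; over 266 aligned bases they differed at 8 columns, which are in capitals.
Zscan4c, chr7:11005506-11005771 (+): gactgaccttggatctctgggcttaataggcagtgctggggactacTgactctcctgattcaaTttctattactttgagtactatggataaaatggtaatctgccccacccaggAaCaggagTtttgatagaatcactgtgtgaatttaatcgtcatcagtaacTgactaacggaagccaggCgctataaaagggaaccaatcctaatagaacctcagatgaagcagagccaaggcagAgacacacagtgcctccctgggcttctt
Zscan4d, chr7:11166133-11166398 (-): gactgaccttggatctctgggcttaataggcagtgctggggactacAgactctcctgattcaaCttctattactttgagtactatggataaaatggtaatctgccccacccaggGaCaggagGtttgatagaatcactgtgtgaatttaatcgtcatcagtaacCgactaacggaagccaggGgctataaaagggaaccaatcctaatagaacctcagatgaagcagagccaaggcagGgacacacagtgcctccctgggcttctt
Zscan4f, chr7:11397699-11397964 (+): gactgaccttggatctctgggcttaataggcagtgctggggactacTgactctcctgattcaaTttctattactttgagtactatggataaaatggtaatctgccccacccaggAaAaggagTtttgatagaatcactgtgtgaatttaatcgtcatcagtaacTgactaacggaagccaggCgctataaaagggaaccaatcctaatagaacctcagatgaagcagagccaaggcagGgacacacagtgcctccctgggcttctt
Over their overlap, Zscan4c and Zscan4f were 99.3% identical, Zscan4c and Zscan4d 97.2%, and Zscan4d and Zscan4f 97.4%. Usp17ld matched its paralog Usp17lc at 96.8% of 278 bases. Each motif was searched on both strands. The letters TATAAA were found in 4 of the 6 genes (the 3 Zscan4 genes and Usp17ld) and in 13.6% of all 32851 RefSeq windows. The letters GATTCAAT, part of a DUX-type site, were found in Zscan4c and Zscan4f and in 0.496% of all windows; the longer GATTCAATC, which contains them, was found in 0 of the 6 and in 0.149%. TGCACAC, a ZSCAN4-type string, was in 0 of the 6 and in 4.4% of all windows.

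The Tdpoz1 window and the upstream of the 2 Sp110 windows are shown because these 2 genes, unlike the Zscan4 genes, passed the test in neither EpiLC conversion. Their capitals mark the letters CACCTTTAA and GGAAGAAGG, which were picked by eye from these windows. The Sp110 window shown lies upstream of and outside the Sp110 gene model given above. The other Sp110 window, chr1:85598761-85599060, overlaps the start of that model. Tdpoz2, for which no window was found, also passed in neither conversion.
Tdpoz1, chr3:93676234-93676533 (-): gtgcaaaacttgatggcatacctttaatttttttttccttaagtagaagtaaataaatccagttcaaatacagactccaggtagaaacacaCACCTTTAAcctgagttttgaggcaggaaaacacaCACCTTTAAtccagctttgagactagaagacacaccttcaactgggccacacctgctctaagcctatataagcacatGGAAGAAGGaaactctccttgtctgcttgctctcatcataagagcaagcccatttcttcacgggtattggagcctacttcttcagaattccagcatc
Sp110, chr1:85603842-85604141 (-): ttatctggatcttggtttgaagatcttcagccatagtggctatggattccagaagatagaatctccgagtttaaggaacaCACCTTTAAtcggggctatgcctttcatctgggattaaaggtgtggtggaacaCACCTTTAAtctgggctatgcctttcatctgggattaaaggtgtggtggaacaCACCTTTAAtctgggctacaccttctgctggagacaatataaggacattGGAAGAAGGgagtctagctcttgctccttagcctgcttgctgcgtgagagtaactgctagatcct
On the strand printed, CACCTTTAA stands in 2 copies in Tdpoz1 and in 3 copies in Sp110. These are followed by 1 copy of GGAAGAAGG that begins 47 and 15 bases before the start site of the window. The Sp110 window also holds the reverse complement TTAAAGGTG, which is not in capitals. Counting both strands, 0.405% of all windows held the first string, 1.51% the second and 0.107% (35 windows) both. Since the strings were chosen from these members, their presence there is a description only. At the shift without gaps that gave the highest identity, the Tdpoz1 and Sp110 windows matched at 32.5% of 268 bases. The same search gave 33.8% for Zscan4c with Usp17ld and 34.0% for Zscan4c with Tdpoz1.

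Several of the 8 transcripts repeat stretches of their paralogs, which bears on how reads could be assigned; the sources used here do not say how the authors treated reads with several matches. In the GENCODE transcripts, 95.3% of the 50-base windows of Zscan4f, 85.5% of those of Zscan4c and 49.6% of those of Zscan4d also occur in another gene. The share was 53.8% for Sp110 (mostly Gm16026), 51.1% for Usp17ld (mostly Usp17lc), 48.3% for Tdpoz2, 45.1% for Tdpoz1 and 16.8% for Tcstv1. The Zscan4 rows therefore cannot be read as 3 independent measurements. Of the 8, Tcstv1 had the lowest share of repeated windows.

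Library totals ran from 14255399 to 33376660 counts, and the intervals and floors given for low counts cover counting error only. The 45S ribosomal precursor Rn45s split the libraries into 2 sets at 10000 CPM: 9 low libraries (ESC BaxHet, ESC BaxKO 1, ESC Host 1 and 2, and the 5 PGC-ESC BaxKO libraries) and 11 high ones; its part in the results was not tested except where a fit is named. The cell labels were checked with marker lists: 14 of 14 pluripotency genes fell and 8 of 9 formative epiblast genes rose in both EpiLC groups against their parents. Summed CPM of 11 fibroblast and feeder genes was 32.0 to 38.0 in EpiLCs and 2.54 to 17.9 in the other libraries, with 6 of 7 tested genes higher in EpiLC Host and 5 of 7 in EpiLC DKO. In EpiLC Host 2 of the 11 were at 0 and in EpiLC DKO 1, and their part in the EpiLC results was not tested.

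The order of the 7 group means was the same for the 3 Zscan4 genes and differed for the other 5, for example with Tdpoz1 and Sp110 higher in PGC-ESC DKO (means of 1.30 and 4.40 CPM) than in EpiLC Host (0.703 and 2.72 CPM). Zscan4c was lowest in ESC BaxHet, at 0.652 CPM in its 1 library, followed by ESC BaxKO at 1.34 and 2.01 CPM and PGC-ESC BaxKO at 2.58, 0.397, 0.836, 1.74 and 2.90 CPM. ESC Host libraries 1 to 4 gave 13.5, 1.63, 4.61 and 4.18 CPM, and PGC-ESC DKO libraries 1 to 3 gave 7.81, 9.54 and 18.4 CPM. EpiLC Host 3 and 4 gave 43.0 and 16.1 CPM, and EpiLC DKO 1 to 3 gave 36.0, 52.8 and 33.2 CPM. Group means thus ran from 1.67 ± 0.48 (SD, n = 2) in ESC BaxKO and 1.69 ± 1.08 (n = 5) in PGC-ESC BaxKO to 5.97 ± 5.17 (n = 4) in ESC Host, 11.9 ± 5.69 (n = 3) in PGC-ESC DKO, 29.6 ± 19.0 (n = 2) in EpiLC Host and 40.7 ± 10.6 (n = 3) in EpiLC DKO. Most neighbours in that order lie within each other's spread: the libraries of the Bax groups overlap, as do those of ESC Host and PGC-ESC DKO, and of both EpiLC groups. PGC-ESC DKO and EpiLC Host are neighbours that overlap too, since EpiLC Host 4 is below PGC-ESC DKO 3.

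**Figure D1:**
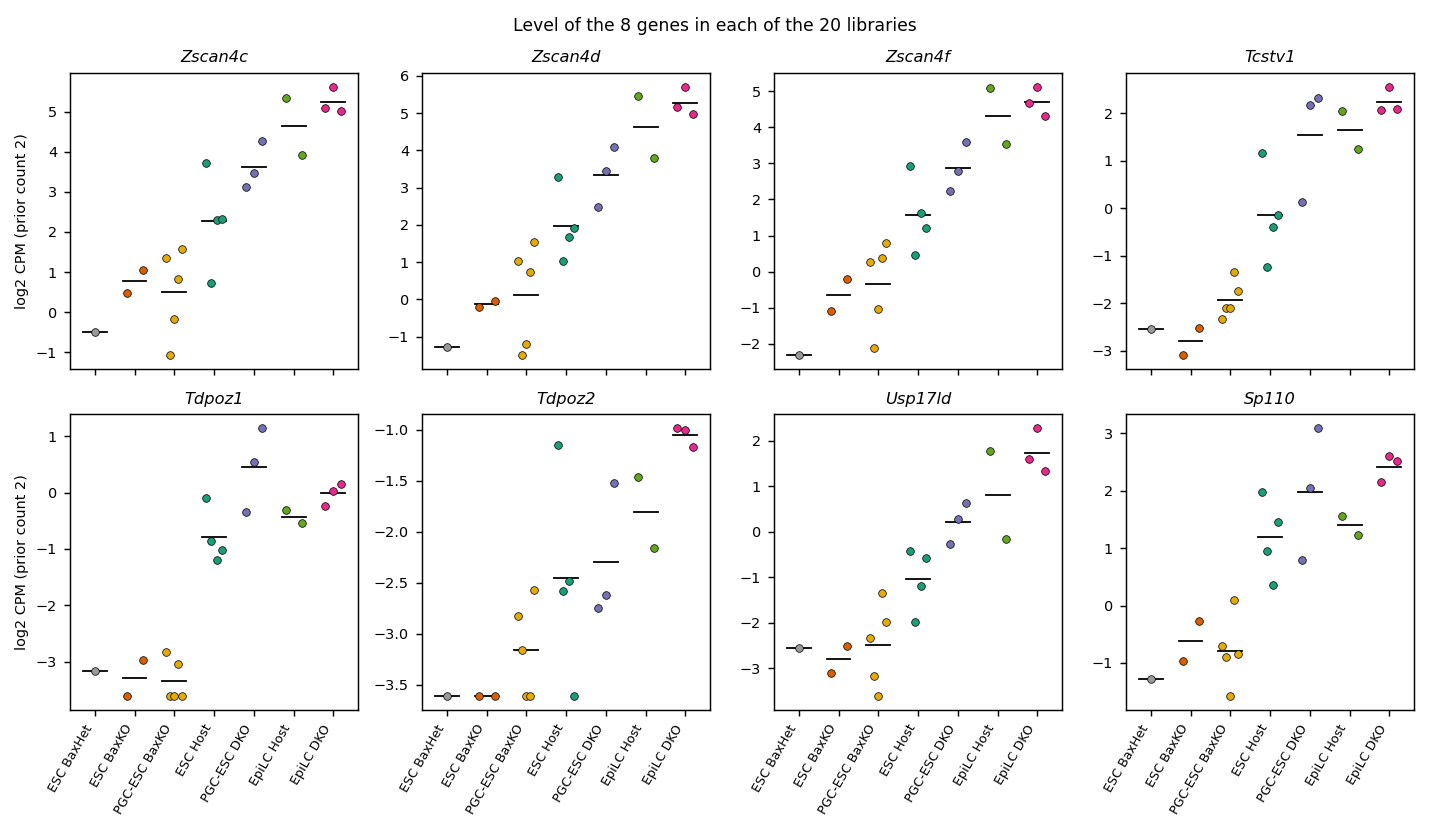
Each point is the log2 CPM (prior count 2) of 1 library and each bar the mean of its group, with 1 panel for each of the 8 genes and a scale of its own in each panel. The mean of every gene was lower in each of the 3 Bax groups on the left than in each other group; the mean of Tdpoz1 was highest in PGC-ESC DKO, and ESC Host 1 was the highest of the 4 ESC Host libraries for each gene.

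Zscan4d and Zscan4f followed Zscan4c closely. Zscan4d ran from 0.275 CPM in PGC-ESC BaxKO 2 to 56.0 CPM in EpiLC DKO 2, and Zscan4f from 0.124 CPM in ESC BaxHet to 37.3 CPM in EpiLC DKO 2. Per kilobase of exon, these 3 were the highest of the 8 in EpiLC DKO, at 18.4 ± 5.54 (Zscan4d), 17.9 ± 4.65 (Zscan4c) and 14.3 ± 4.38 CPM per kilobase (Zscan4f; SD, n = 3). Tcstv1 followed at 3.53 and Usp17ld at 1.79, ahead of Sp110 at 0.826, Tdpoz1 at 0.408 and Tdpoz2 at 0.370 CPM per kilobase. Tdpoz2 was the lowest, with 0 counts in 6 of the 20 libraries and at most 0.449 CPM.

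Lines of a group differed widely. The spread of Zscan4d between libraries of a group was 1.01 on the log2 scale (SD, 13 residual degrees of freedom), above that of 97.7% of all tested genes, whose median was 0.34. Zscan4f (0.95) and Zscan4c (0.94) were at 96.9% and 96.6%, Usp17ld at 91.0%, Tcstv1 at 89.4%, Sp110 at 84.8%, Tdpoz2 at 80.7% and Tdpoz1, with an SD of 0.46, at 64.1%. Among genes of a like level (within 0.5 on the log2 scale), the Zscan4 genes were at 94.2% to 96.7% and the other 5 at 7.38% (Tdpoz1) to 75.6% (Tcstv1), so a wide spread for the level was seen in the Zscan4 genes. Within ESC Host, Zscan4c was 8.28 times as high in library 1 as in library 2, and within PGC-ESC BaxKO it was 7.29 times as high in library 5 as in library 2. The 8 genes shared these ups and downs: after the group means were removed, Pearson's r of log2 CPM over 20 libraries was 0.94 to 0.97 among the Zscan4 genes, 0.87 for Tdpoz1 with Sp110, 0.81 to 0.85 for Usp17ld with the Zscan4 genes, and 0.32 for Tdpoz2 with Usp17ld, the lowest pair. These are descriptions only, over libraries that differ in depth and, between groups, in strain label.

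PGC-ESC DKO and PGC-ESC BaxKO lines gave the clearest difference between naive lines. Tdpoz1, a TRAF-POZ gene, was near 0 in the 5 PGC-ESC BaxKO libraries (0.0614, 0, 0, 0.0404 and 0 CPM, 2 counts in all). In the 3 PGC-ESC DKO libraries it reached 0.646, 1.19 and 2.06 CPM (70 counts). Every DKO library was above every BaxKO library. The change was 5.96 ± 0.67 on the log2 scale (SE; edgeR quasi-likelihood test, Benjamini-Hochberg adjusted p = 2.34e-05), and the ratio of pooled counts was 65.2 (exact 95% counting interval 17.4 to 549). Tcstv1 gave 0.123, 0.153, 0.157, 0.323 and 0.216 CPM in the BaxKO lines and 0.923, 3.86 and 4.70 CPM in the DKO lines, again with no overlap. It rose by 4.10 ± 0.57 (edgeR adjusted p = 0.000221). Zscan4c, Zscan4d and Zscan4f rose by 2.98 ± 0.58, 3.00 ± 0.62 and 3.12 ± 0.60 (edgeR adjusted p = 0.00251, 0.00358 and 0.00251). Sp110, the nuclear body gene, gave 0.261 to 1.01 CPM in the BaxKO lines against 1.51, 3.51 and 8.17 CPM in the DKO lines and rose by 3.10 ± 0.48 (edgeR adjusted p = 0.000563). Usp17ld, the deubiquitinase gene, was at 0 to 0.323 CPM against 0.677, 0.982 and 1.42 CPM and rose by 3.05 ± 0.67 (edgeR adjusted p = 0.00507). Tdpoz2 was the one that did not pass, with 4 counts in 5 libraries against 7 in 3 and a change of 1.79 ± 1.01 (adjusted p = 0.204).

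In all, 7 of the 8 genes rose in PGC-ESC DKO against PGC-ESC BaxKO and 0 fell, where 11.4% of all tested genes were called higher and 12.2% lower. The median change of the 8 was 3.08 and that of all tested genes -0.02. The same 7-gene count was found on leaving out any 1 of the 8 libraries. These groups differ in strain label, knockout and Rn45s set at once: every PGC-ESC BaxKO library is in the low set and every PGC-ESC DKO library in the high set. With the set as a term of the fit, estimated from the groups that hold both sets, 3 of the 8 were called (Tcstv1, Tdpoz1 and Sp110), and the changes of Zscan4c, Zscan4d, Zscan4f and Usp17ld were 3.24, 3.53, 3.44 and 2.78 (adjusted p = 0.0919, 0.0859, 0.0917 and 0.259).

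The other genes of the two-cell-like list moved likewise in this comparison. Of 89 listed genes, 55 were in the table and 47 were tested; 33 of these 47 rose and 0 fell, with a median change of 2.54. The smallest adjusted p-values were those of Gm20767 (4.56 ± 0.46, adjusted p = 7.6e-06), Gm21818 (4.27 ± 0.66, 0.000514), the homeobox gene Lmx1a (3.28 ± 0.50, 0.000524) and the Prame-family gene Pramef25 (3.76 ± 0.60, 0.000637). Several listed genes share transcript windows with the 8, among them Zscan4a, Zscan4b, Tcstv3, Usp17la, Usp17lb, Usp17lc and Usp17le. Gm21818 shares 13.4% and Gm20767 4.55% of the windows of Tcstv1. Such rows may hold some of the same reads, so the list is not fully independent of the 8, here or in later comparisons. Lmx1a and Pramef25 were not among the genes found to share windows. Dux, named here as the textbook activator after its values were seen, gave 0.0523 to 0.121 CPM in the BaxKO lines against 0.338 to 0.421 CPM in the DKO lines and rose by 2.37 ± 0.77 (adjusted p = 0.0354). Of 34 regulators of the state, 6 rose and 4 fell, where 11.4% of all tested genes were called higher and 12.2% lower. The regulators were led by the deacetylase gene Hdac1 (0.93 ± 0.14, edgeR adjusted p = 0.000393) and Dppa4 (0.56 ± 0.12, 0.00461). Markers of other cell types are to be read against the same shares. Among them, 4 of 10 trophoblast genes rose and 0 fell. Of 16 late germ cell and oocyte genes 1 rose and 6 fell, and of 9 primitive endoderm genes 0 rose and 1 fell. Summed trophoblast CPM was 166 to 182 in PGC-ESC DKO and 110 to 216 in PGC-ESC BaxKO, with no marker at 0 in a whole group. The part of these in the result was not tested.

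**Figure D2:**
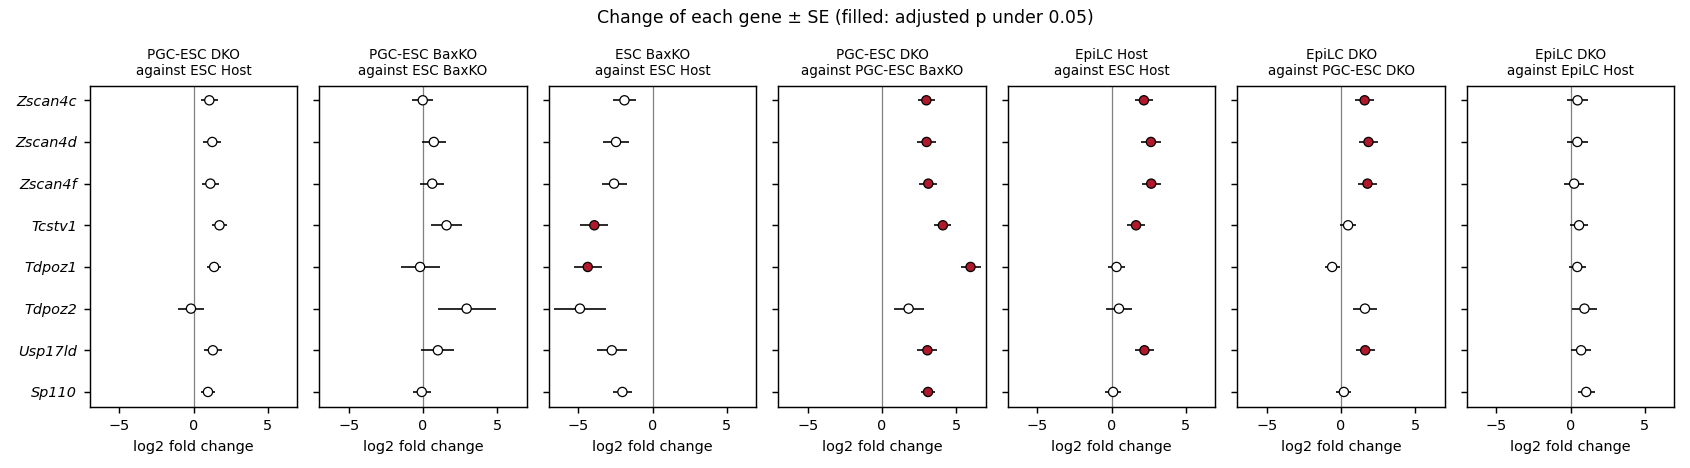
Log2 fold change of each of the 8 genes with its standard error in 7 comparisons, filled where the adjusted p was under 0.05. The filled points are 7 in PGC-ESC DKO against PGC-ESC BaxKO, 5 in EpiLC Host against ESC Host, 4 in EpiLC DKO against PGC-ESC DKO and 2, both negative, in ESC BaxKO against ESC Host.

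ESC BaxKO lines, set against ESC Host lines, had lower values of all 8 genes, though few passed the test. Tdpoz1 gave 0 and 0.0468 CPM in the 2 ESC BaxKO libraries (1 count), against 0.871, 0.484, 0.340 and 0.348 CPM in the 4 ESC Host libraries (52 counts). It fell by 4.38 ± 0.95 on the log2 scale (edgeR adjusted p = 0.0143), with a pooled ratio of 25.1 (exact 95% counting interval 4.31 to 1011). Tcstv1 gave 0.0361 and 0.0935 CPM (3 counts), against 2.20, 0.352, 0.649 and 0.696 CPM in ESC Host (101 counts). It fell by 3.93 ± 0.94 (edgeR adjusted p = 0.0237), with a pooled ratio of 16.3 (interval 5.41 to 80.2). For these 2 genes both ESC BaxKO libraries were below all 4 Host libraries. So 2 of the 8 fell and 0 rose, where 2.26% of all tested genes were called lower and 2.76% higher.

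The other 6 genes did not pass in that comparison. Zscan4f was at -2.60 ± 0.85 (adjusted p = 0.0866), Sp110 at -2.04 ± 0.64 (0.0740), Zscan4d at -2.47 ± 0.86 (0.110), Usp17ld at -2.75 ± 1.03 (0.136) and Zscan4c at -1.90 ± 0.76 (0.164). Zscan4c was also the one of these whose groups overlapped, through ESC Host 2. Tdpoz2 had 0 counts in both ESC BaxKO libraries and 15 in ESC Host, at least 2.41-fold lower at a floor of 3 counts over the group. All 8 had an unadjusted p under 0.05, and the median change was -2.68, or -2.53 with Tdpoz2 at its bound. The 2 calls were lost when only these 2 groups were fitted and when either ESC BaxKO library was left out (0 of 8 each), while DESeq2 called 5; leaving one out makes an arm of 1 library, assumed to vary like the other groups, and Tcstv1 was then at -3.37 (without ESC BaxKO 1) or -4.64 (without ESC BaxKO 2). Each Rn45s set also holds 1 ESC BaxKO library, and 0 of 8 were called within either, with Tcstv1 at -4.94 in the low set and -2.93 in the high set and Tdpoz1 at -2.89 in the high set and at 0 counts in the low set's ESC BaxKO library.

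Of the 47 other two-cell-like genes, 0 rose and 11 fell in ESC BaxKO, led by Gm20767 (-3.28 ± 0.66, adjusted p = 0.00822), the homeobox gene Obox6 (-2.86 ± 0.59, 0.00983), Chit1 (-3.45 ± 0.74, 0.0127) and AA792892 (-3.49 ± 0.86, 0.026). Dux was at 0 in both ESC BaxKO libraries and had 39 counts in ESC Host, at least 6.28-fold lower at the same floor. Of the 34 regulators 2 fell, Dppa4 and Dppa2, where 2.26% of all tested genes were called lower. Dppa4 gave 52.8 and 59.0 CPM in the BaxKO lines, against 73.0 to 97.8 CPM in the Host lines (-0.66 ± 0.15, adjusted p = 0.0168). Dppa2 was at 32.7 and 35.0 CPM against 193, 45.9, 131 and 114 CPM (-1.92 ± 0.54, adjusted p = 0.0499). For both genes the groups did not overlap, and ESC Host 2, the lowest Host library for Zscan4c, was the lowest Host library for Dppa2 and Dppa4 as well. In PGC-ESC BaxKO, Dppa2 was at 29.3 to 129 CPM, which overlaps ESC Host, while Zscan4c was at 0.397 to 2.90 CPM. Dppa4 was at 56.7 to 60.7 CPM in PGC-ESC BaxKO, below every ESC Host library. The part of Dppa2 and Dppa4 in the result was not tested.

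Germ cell origin was examined inside each background. PGC-ESC BaxKO against ESC BaxKO called 0 of the 8 genes, with 0 at an unadjusted p under 0.05, where 0.0367% of all tested genes were called. Changes ran from -0.20 ± 1.31 (Tdpoz1) to 1.58 ± 1.03 (Tcstv1), apart from Tdpoz2, for which 4 counts against 0 allow no fold. PGC-ESC DKO against ESC Host also called 0 of the 8, where 0.116% of all tested genes were called, but 7 of the 8 changes were positive. Tcstv1 (1.74 ± 0.53, adjusted p = 0.388) and Tdpoz1 (1.38 ± 0.49, adjusted p = 0.563) had an unadjusted p under 0.05, and the median change was 1.19. DESeq2 called 0 of the 8 in each of these comparisons as well. The libraries of PGC-ESC DKO and ESC Host overlapped for every one of the 8, since ESC Host 1 reached 13.5 CPM of Zscan4c and 3.97 CPM of Sp110. The difference between both origin effects called 0 of the 8 (0 at an unadjusted p under 0.05), where 0.0794% of all tested genes were called. Of the other two-cell-like genes, 0 of 47 passed in each of these 3 comparisons. In PGC-ESC DKO against ESC Host 41 of their changes were positive and 6 negative (median 0.96, all tested genes -0.05). In PGC-ESC BaxKO against ESC BaxKO 40 were positive and 7 negative (median 0.65, all tested genes -0.0013). For the difference of origin effects 28 were positive and 19 negative (median 0.27, all tested genes -0.06).

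Conversion to EpiLCs, cells that model the epiblast shortly after implantation, raised the Zscan4 genes in both sets of lines. In the line-by-line view, Zscan4c went from 4.61 to 43.0 CPM in Host line 3, 9.34 times, and from 4.18 to 16.1 CPM in Host line 4, 3.85 times. In DKO lines 1, 2 and 3 it went from 7.81 to 36.0, from 9.54 to 52.8 and from 18.4 to 33.2 CPM, or 4.61, 5.53 and 1.80 times. Zscan4d, Zscan4f, Usp17ld and Tdpoz2 were also higher in the EpiLCs of all 5 lines, Tcstv1 and Sp110 in 4 of 5, and Tdpoz1 in 3 of 5. DKO line 3 had the highest parent value of the 5 for all 8 genes, and that value is the denominator of its ratios. Its ratio was the smallest for 7 genes (for Tdpoz2, of the 4 lines with a ratio), the exception being Usp17ld (1.76, against 1.74 in Host line 4), and its EpiLCs were below their parent for Tcstv1, Tdpoz1 and Sp110 (0.913, 0.513 and 0.708 times).

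Against ESC Host, EpiLC Host libraries were higher in 5 of the 8 genes, with 0 lower, where 22.4% of all tested genes were called higher and 21.7% lower. Zscan4c, Zscan4d and Zscan4f rose by 2.18 ± 0.63, 2.65 ± 0.67 and 2.67 ± 0.64 (edgeR adjusted p = 0.00919, 0.00370 and 0.00263), Usp17ld by 2.21 ± 0.65 (0.0105) and Tcstv1 by 1.65 ± 0.58 (0.0273). For these 5 both EpiLC Host libraries were above all 4 ESC Host libraries. The others did not pass against the 4 ESC Host libraries: Tdpoz1 at 0.33 ± 0.56 (edgeR adjusted p = 0.660), Sp110 at 0.10 ± 0.54 (0.897) and Tdpoz2 at 0.50 ± 0.85 (0.667). Against their own parents, Host lines 3 and 4, Tdpoz1 was 2.25 and 1.84 times as high and Sp110 2.64 and 1.08 times. Tdpoz2 was 3.21 times as high in line 3 and went from 0 to 0.151 CPM in line 4. The median change of the 8 against ESC Host was 1.91. Without EpiLC Host 3 the arm is 1 library, EpiLC Host 4, assumed to vary like the other groups, and 0 of the 8 passed, with Zscan4c at 1.30, Zscan4d at 1.58, Zscan4f at 1.70, Tcstv1 at 1.17 and Usp17ld at 0.88. Without ESC Host 2, 3 or 4 the call of Tcstv1 was lost, and without ESC Host 1 all 5 held.

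Against PGC-ESC DKO, EpiLC DKO libraries were higher in 4 of the 8, the 3 Zscan4 genes and Usp17ld, with 0 lower, where 25.1% of all tested genes were called higher and 22.5% lower. The changes were 1.59 ± 0.63 for Zscan4c, 1.85 ± 0.67 for Zscan4d, 1.78 ± 0.64 for Zscan4f and 1.63 ± 0.63 for Usp17ld (edgeR adjusted p = 0.0456, 0.0308, 0.0305 and 0.0417), and their groups did not overlap. Tcstv1 was at 0.47 ± 0.55 (adjusted p = 0.503), Sp110 at 0.19 ± 0.51 (0.787), Tdpoz2 at 1.61 ± 0.84 (0.125) and Tdpoz1 at -0.60 ± 0.51 (0.351). The median of the 8 was 1.60. All 4 calls were lost on leaving out EpiLC DKO 1, EpiLC DKO 2, PGC-ESC DKO 1 or PGC-ESC DKO 2; with the line as a block all 4 held, at adjusted p = 0.00153 to 0.0214.

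EpiLC DKO and EpiLC Host, compared directly, called 0 of the 8 (0 at an unadjusted p under 0.05; DESeq2 also 0), where 0.0428% of all tested genes were called. Changes were 0.24 to 1.05, all positive, with Sp110 the highest at 1.05 ± 0.58. Sp110 was at 4.58, 6.43 and 5.79 CPM in EpiLC DKO and 3.02 and 2.41 CPM in EpiLC Host, without overlap. EpiLC Host 4 was the lowest EpiLC library for each of the 8. The difference between both EpiLC responses also called 0 of the 8 (0 at an unadjusted p under 0.05), where 0.00611% of all tested genes were called. It was -1.18 ± 0.80 for Tcstv1, -0.94 ± 0.76 for Tdpoz1 and -0.59 ± 0.89 for Zscan4c (adjusted p = 1.00 each), so the differences had errors of nearly their own size.

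In the wider two-cell-like list, 36 of 47 changes were positive and 11 negative in each EpiLC conversion, while calls went both ways. The median change was 1.41 in EpiLC Host and 0.75 in EpiLC DKO, against -0.03 and 0.01 for all tested genes. Of 47 genes, 16 rose and 4 fell in EpiLC Host, and 6 rose and 3 fell in EpiLC DKO; of all tested genes 22.4% rose and 21.7% fell in the first and 25.1% and 22.5% in the second, and the lists that follow are to be read against these shares. In EpiLC Host the smallest adjusted p-values were those of Obox6 (adjusted p = 7.04e-07), Usp17la (3.26 ± 0.65, 0.000604), Usp17le (3.06 ± 0.63, 0.000746) and Spz1 (2.94 ± 0.62, 0.000942). In EpiLC DKO they were those of Obox6 (-5.75 ± 0.72, adjusted p = 4.87e-06), Zfp365 (1.40 ± 0.34, 0.00242), Pramel6 (-5.91 ± 1.56, 0.00506) and Pramel7 (adjusted p = 0.00641). Obox6 had 3 counts in EpiLC Host and 2941 in ESC Host, a ratio of 483 (exact 95% counting interval 165 to 2342), and Pramel7 had 2 counts in EpiLC DKO and 205 in PGC-ESC DKO, a ratio of 125 (34.3 to 1042). Pramel6 and Pramel7 are also known as genes of naive ESCs. Dux went up in all 5 lines, 4.35 to 20.5 times, and rose by 2.15 ± 0.65 in EpiLC Host (adjusted p = 0.0131) and by 2.34 ± 0.68 in EpiLC DKO (0.00964). Of 14 telomere and recombination genes, 2 rose and 5 fell in EpiLC Host and 3 rose and 6 fell in EpiLC DKO; the telomere-binding genes Terf1 and Terf2 and the telomerase gene Tert fell in both, and the meiotic recombinase gene Dmc1 rose in both. Of the 34 regulators, 5 rose and 13 fell in EpiLC Host and 7 rose and 14 fell in EpiLC DKO. For the telomere and recombination list the counts of higher genes are no more than the all-gene share gives.

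Genes whose profile was most like that of the 8 were sought over the 20 libraries by Pearson's r of log2 CPM with the mean centred profile. Outside the 8, the 10 closest were Gm12794, BC080695, Zscan4a, Spz1, Usp17le, Gm13078, Gm36718, Pramef25, Gm20767 and Gm21818, with r of 0.979 to 0.986. Over the 15 ESC and PGC-ESC libraries alone their r was 0.963 to 0.978, and with group means removed it was 0.866 to 0.957. In all, 82 other genes had r over 0.9, of which 28 were on the two-cell-like list. Among the 10 closest, Zscan4a, Usp17le, Gm20767 and Gm21818 share transcript windows with members of the 8 and are not fully independent of them. Of the 8 themselves, which make up that profile, 5 had a lower r than all 10: Tcstv1 and Usp17ld (0.975 each), Sp110 (0.944), Tdpoz1 (0.919) and Tdpoz2 (0.885).

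**Figure D3:**
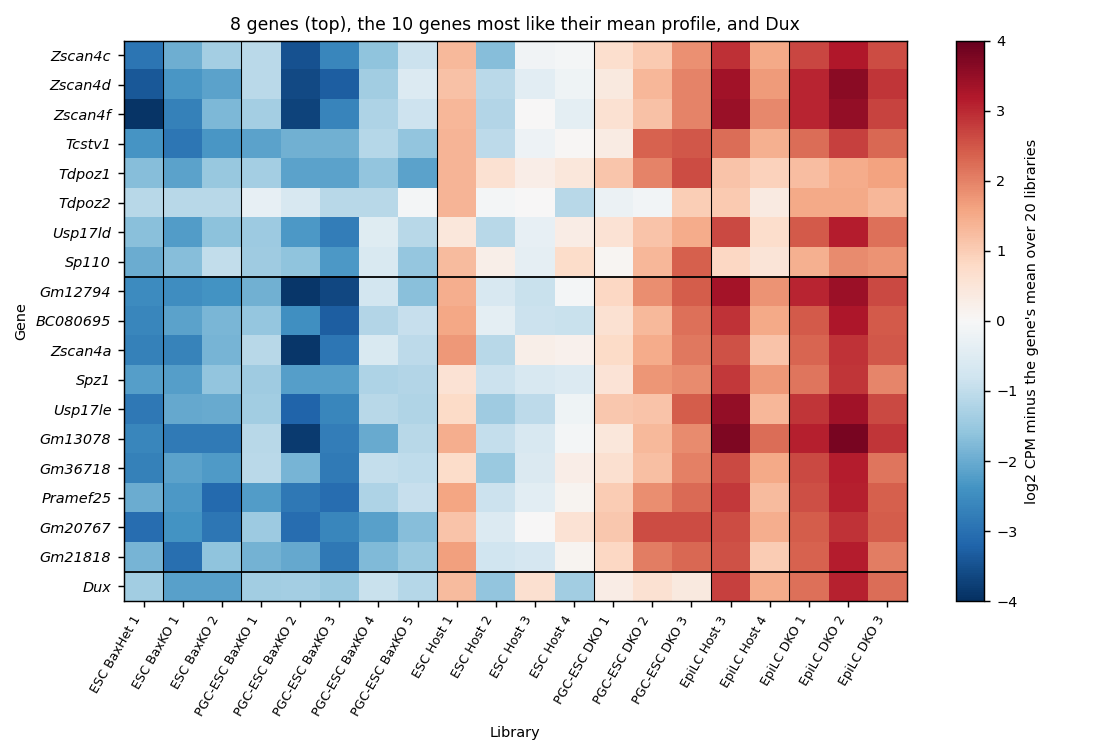
Log2 CPM (prior count 2) less each gene's mean over the 20 libraries, by library in group order, for the 8 genes, the 10 genes closest to their mean profile, and Dux. Bax lines on the left are below the mean, EpiLCs on the right above it, and ESC Host 1 stands above ESC Host 2 to 4.

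Sp100, an SP100-family neighbour of Sp110 on chromosome 1, was close to 0 in EpiLCs; no test of a difference between the genes was run. Sp100 was at 0.371 to 5.19 CPM in ESC Host and 2.40 to 4.91 CPM in PGC-ESC DKO, and had 1 count in EpiLC Host and 0 in EpiLC DKO, at least 81.5-fold lower than in PGC-ESC DKO at a floor of 3 counts over the group. Sp100 fell in EpiLC Host as well (adjusted p = 0.000479). Sp110 was at 2.41 to 6.43 CPM in the same 5 EpiLC libraries. Sp140, which overlaps the upstream Sp110 start on the other strand, was at 0.622 to 1.38 CPM in EpiLCs and did not pass in either conversion (adjusted p = 0.269 and 0.182). In PGC-ESC DKO against PGC-ESC BaxKO, where Sp110 rose, Sp100 was at -1.10 ± 0.59 (adjusted p = 0.182) and Sp140 at -0.66 ± 0.41 (0.249). Of 20 tested interferon-inducible genes, a list that includes Sp100 and Sp140, 1 rose and 2 fell in that comparison, where 11.4% and 12.2% of all tested genes did. In EpiLC Host 7 rose and 8 fell (22.4% and 21.7% of all tested genes), and in EpiLC DKO 4 rose and 7 fell (25.1% and 22.5%).

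**Figure D4:**
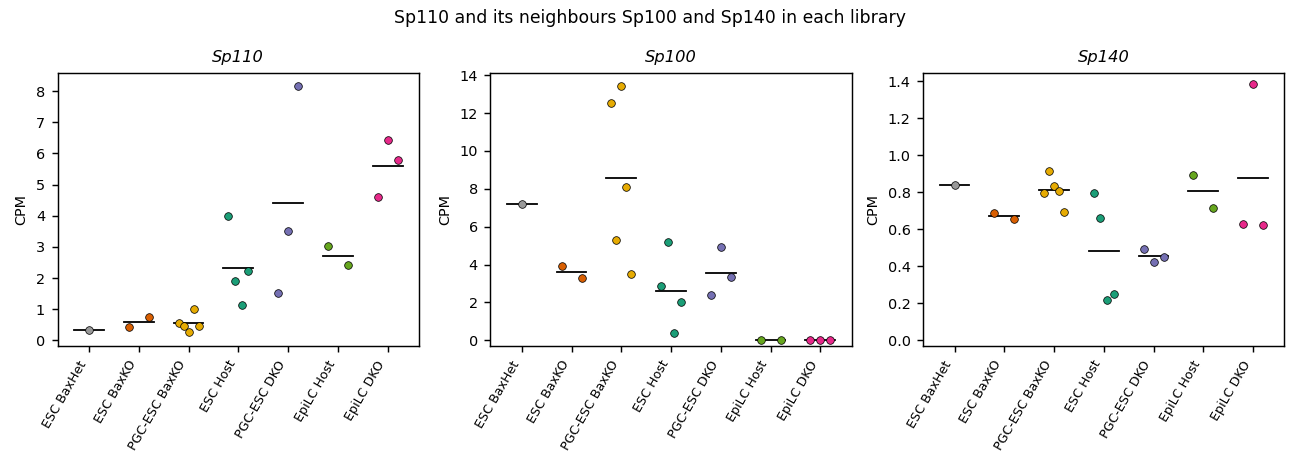
CPM of Sp110, Sp100 and Sp140 in each library (points) with group means (bars), each panel with its own scale. Sp100 is at or next to 0 in all 5 EpiLC libraries, where Sp110 is at 2.41 to 6.43 CPM.

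Summing the rows of each family kept the direction of the Zscan4 and Usp17-like genes in the comparisons that follow, but not every call. The 5 Zscan4 rows together rose by 3.05 ± 0.60 in PGC-ESC DKO against PGC-ESC BaxKO (adjusted p = 0.00277) and by 2.25 ± 0.67 in EpiLC Host (0.0111), and were at 1.63 ± 0.67 in EpiLC DKO (0.0533), where the summed family missed the threshold that its single rows passed. The 5 Usp17-like rows rose by 3.10 ± 0.60 and 2.73 ± 0.66 in the first 2 of these comparisons (adjusted p = 0.00240 and 0.00274) and were at 1.18 ± 0.65 in EpiLC DKO (0.144), where the Usp17ld row on its own passed. The 5 Tdpoz rows rose by 2.30 ± 0.46 in PGC-ESC DKO (0.00308) and were at -1.02 ± 0.59 in ESC BaxKO (0.329), where Tdpoz1 alone fell.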

How the data were processed

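RNA-seq counts of 21361 genes in 20 libraries were used as deposited; per the submitters' processing notes the authors aligned reads with STAR 2.7.7a to mouse build mm10, while the counting tool and annotation are not stated there. Whole-number counts were tested with edgeR 4.0.16 (R 4.3.3): filterByExpr left 16363 genes, libraries were scaled by TMM, and 1 quasi-likelihood fit over all 7 groups (13 residual degrees of freedom) gave every comparison, with Benjamini-Hochberg adjustment over all tested genes and a threshold of 0.05. Fold changes are log2 with standard errors; log2 CPM used a prior count of 2. ESC BaxHet (n = 1) entered no comparison. Replicates are separate libraries; the labels number them by line, and p-values measure the spread between these libraries. All 24 replicate pairs differed by more than sampling noise (chi-square per gene 6.72 to 223). EpiLCs pair with their parents because both come from the same line (correlation of deviations 0.0931 to 0.185). Family rows were also summed. Alternatives were another scaling, no filter, DESeq2 1.42.0, fits of fewer libraries, a term for the Rn45s set, and blocks. The code was tested on simulated data.

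The 8 genes and the gene lists were chosen with earlier results of these data known. Named were the 8, from each list the called genes of lowest adjusted p, at most 4, the 10 genes closest to the mean profile, and family rows; Dux, Dppa2, Dppa4, Obox6, Pramel6, Pramel7, Sp100 and Sp140 were given more values after theirs were seen, and the shares of repeated windows, promoters and shared letters come from GENCODE transcripts and RefSeq windows.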

Additional observations from a re-analysis of the deposited data

Results flagged for a closer look

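Zscan4d stood out in 1 library of ESC Host: library 1 was at 9.80 CPM, while the next was at 3.13 and the lowest at 2.02 CPM, so the gap to its neighbour took 0.857 of the whole range. This was the single one of 16 such checks (8 genes in groups of 4 or 5 libraries) to pass, where chance passes about 1 in 20 independent checks. These checks are not independent, since ESC Host 1 was the highest ESC Host library for each of the 8 genes. Its gap took from 0.364 (Usp17ld) to 0.857 (Zscan4d) of the range, with Tcstv1 next at 0.813. Leaving out ESC Host 1 left the 5 calls of EpiLC Host against ESC Host in place.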

How the results depend on the processing

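PGC-ESC DKO against PGC-ESC BaxKO kept its count of 7 when any 1 library was left out, and fell to 3 with the Rn45s set as a term (204 genes called in all, against 3858); without PGC-ESC DKO 2, 1552 genes were called in all. ESC BaxKO against ESC Host gave 5 with DESeq2 (1423 genes in all, against 821), 1 with family rows summed, 0 with only these groups fitted (136 genes), 0 in the high Rn45s set (980 genes), 0 in the low set (33 genes), and 0 to 3 when a library was left out (0 without either ESC BaxKO library, which leaves an arm of 1, with 245 and 182 genes in all; 537 without ESC Host 3). With the Rn45s term Usp17ld lost its call in EpiLC Host (adjusted p = 0.0509) and Zscan4c in EpiLC DKO (0.0507), and Tcstv1 lost its call in EpiLC Host with only the compared groups fitted (0.0742). EpiLC Host against ESC Host gave 0 to 5 when a library was left out, and EpiLC DKO against PGC-ESC DKO gave 0 to 3 and 0 with family rows summed. The fits within an Rn45s set were added after the data were seen. The cause of these differences was not tested. In the other 5 comparisons 0 of the 8 were called under every alternative run, while the genes called in all by DESeq2 were 92 (against 19) for PGC-ESC DKO against ESC Host, 72 (against 6) for PGC-ESC BaxKO against ESC BaxKO, 33 (against 7) for EpiLC DKO against EpiLC Host, 74 (against 13) and 6 (against 1) for the differences of origin effects and EpiLC responses. Other settings gave 6 to 44 genes for the first of these and 0 to 12 for the second; 11 without EpiLC DKO 1 for EpiLC DKO against EpiLC Host; 7 with the Rn45s term for the difference of origin effects; and 0 to 3 for that of EpiLC responses.

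The line as a replicate block changed no call: 5 in EpiLC Host and 4 in EpiLC DKO. Elsewhere lines share only a number; with that number as a block, 1 of the 8 (Tcstv1) was called in PGC-ESC DKO against PGC-ESC BaxKO (418 genes in all) and 0 in ESC BaxKO against ESC Host (180 genes), and in PGC-ESC BaxKO against ESC BaxKO the log2 change was -0.066 for Zscan4d and -0.28 for Zscan4f. No paired analysis was possible for EpiLC DKO against EpiLC Host because their lines share a single number, and none was run for the difference of origin effects.

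Of changes that turned sign, none had passed the test except that of Sp110 in PGC-ESC DKO against PGC-ESC BaxKO with Sp100, Sp110 and Sp140 summed, at -0.083. That sum also gave -0.73 in EpiLC Host, -0.56 in EpiLC DKO and 1.00 in PGC-ESC BaxKO against ESC BaxKO. Summed families gave 0.43 (Zscan4c) and 0.0061 (Tdpoz1) in PGC-ESC BaxKO against ESC BaxKO, 0.41 (Tdpoz1) in EpiLC DKO against PGC-ESC DKO and 1.29 (Tdpoz2) in PGC-ESC DKO against ESC Host. In PGC-ESC BaxKO against ESC BaxKO, DESeq2 gave 0.00029 for Zscan4c, and the low Rn45s set, with 1 ESC BaxKO library, 0.32 for Zscan4c and 0.34 for Sp110; its 2.18 for Tdpoz1 is a fitted value over 0 counts and no measured change. Tdpoz2 in PGC-ESC DKO against ESC Host was 1.02 both with the Rn45s set as a term and in the high set. With a library left out, ranges that crossed 0 were, in EpiLC DKO against EpiLC Host, -0.075 to 1.35 (Zscan4c), -0.15 to 1.52 (Zscan4d) and -0.34 to 1.21 (Zscan4f); in EpiLC Host against ESC Host, -0.047 to 1.55 (Tdpoz2) and -0.13 to 0.45 (Sp110); in PGC-ESC BaxKO against ESC BaxKO, -0.35 to 0.30 (Zscan4c), -1.22 to 2.13 (Tdpoz1, the upper end fitted over 0 counts) and -0.45 to 0.34 (Sp110); for Tdpoz2 in PGC-ESC DKO against ESC Host, -0.99 to 0.88; and for Sp110 in EpiLC DKO against PGC-ESC DKO, -0.24 to 0.93. Low counts limit Tdpoz1, Tdpoz2, Tcstv1 and Usp17ld in the Bax lines.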

Other observations

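Averaged over the 8 genes, with each gene centred on its mean of log2 CPM, libraries of different groups interleaved. EpiLC DKO 2 ranked 1st and PGC-ESC BaxKO 2 ranked 20th. PGC-ESC DKO 3 and 2 and ESC Host 1 (ranks 5, 6 and 7) stood above EpiLC Host 4 (rank 8). All 8 Bax libraries took ranks 13 to 20.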
